A study of Mus musculus with 24 samples.

Results

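RNA was sequenced from prostate organoids labelled heterozygous for Brca1 and grown without or with dihydrotestosterone (DHT), the most potent natural androgen. The comparison holds 6 of the 24 libraries of the series, chosen by their titles: 3 labelled HET minus DHT and 3 labelled HET plus DHT. The question it answers is how cells that carry 1 altered copy of Brca1, a gene of homologous recombination repair, respond to the loss of androgen. All 6 libraries carry the genotype label Brca1+/-. They come from anterior lobes of 3-month-old mice, dissociated with collagenase and grown in Matrigel. The medium held EGF, Noggin, R-Spondin, the TGF-beta receptor inhibitor A83-01, the kinase inhibitor Y27632, B27 and N-acetylcysteine in every group. The deleted part of Brca1, any Cre driver and the length of the withdrawal are not given in the sources used here. Nor do the labels say whether the 3 libraries of a group came from separate mice or cultures, so the p-values speak of the spread among these libraries and no further. Organoids labelled KO (Brca1-/-) and WT (wild type), with 3 libraries in each medium, entered the same statistical fit and its shared estimate of the spread. Beyond that, they are used below only to place the response of the HET organoids.

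Androgens enter the cell and bind the androgen receptor, which leaves its chaperones, binds DNA as a dimer and changes transcription. In the prostate this keeps luminal cells secretory and keeps genes such as Fkbp5 on. The receptors for androgen and for glucocorticoid recognise nearly the same DNA element, so the lists of genes they control overlap. Organoids grown from dissociated prostate are largely epithelial, so the hormone acts on the epithelium without a stroma around it.

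The HET minus DHT libraries held 29409564, 42857639 and 58445041 estimated reads, and the HET plus DHT libraries 42126931, 37850939 and 42693382. The fit covered 15427 genes. The mitochondrial share of reads was 9.43%, 4.54% and 2.42% without DHT, against 2.88%, 2.22% and 4.58% with DHT. The first principal component of the 6 libraries held 70.2% of the variance and did not separate the media. Its scores were -48.7, -8.13 and 27.2 without DHT and 11.2, 23.7 and -5.32 with DHT, and HET minus DHT replicate 1, the library with the highest mitochondrial share, stood at its end. The second component held 13.2% and placed the 3 libraries without DHT at 7.53, -0.543 and 20.2, above the 3 with DHT at -6.75, -7.58 and -12.8. The part of HET minus DHT replicate 1 in single results was not tested beyond the fits without that library and with the mitochondrial share as a covariate, whose counts are given beside several of the gene lists.

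**Figure D1:**
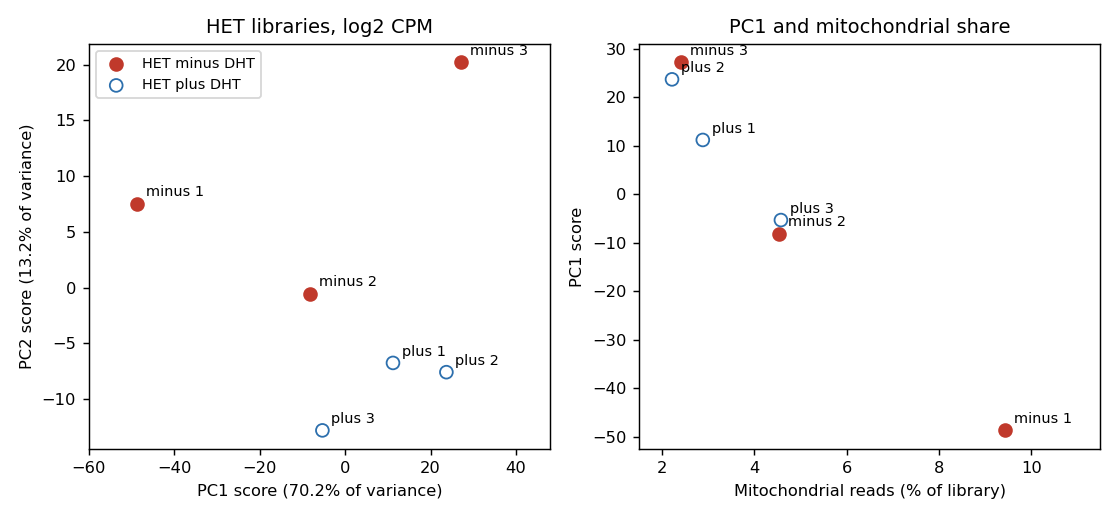
Principal component scores of the 6 HET libraries on log2 CPM (left) and the first component against the percentage of mitochondrial reads (right), 1 point per library. Filled points are HET minus DHT and open points HET plus DHT. HET minus DHT replicate 1 lies apart at a score of -48.7 with 9.43% mitochondrial reads, and the media separate on the second component.

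The prostate epithelial label was checked against marker genes. In transcripts-per-million (TPM), Epcam lay between 1144 and 1395, Krt8 between 472.5 and 858 and Krt5 between 767 and 1395 over the 6 HET libraries, so luminal and basal keratins were both abundant. The prostate homeobox gene Hoxb13 lay between 13.3 and 30.5 TPM. Pbsn, the probasin gene of the mature secretory cell, had 1.89 TPM in HET minus DHT replicate 3. In the other HET libraries Pbsn lay between 0 and 0.116 TPM. Of 8 seminal vesicle markers, 7 were at 0 in all 6 libraries. Summed leukocyte markers came to 1.49 to 2.69 counts-per-million (CPM) without DHT and 1.31 to 1.69 CPM with DHT, and summed endothelial markers to 4.86 to 7.73 CPM without DHT and 5.93 to 6.16 CPM with DHT. Stromal markers summed to 22.4 to 26.0 CPM without DHT and 21.5 to 26.4 CPM with DHT, nearly all of it from Dcn and Fbln1, with Lum and Mfap4 at 0. Smooth muscle markers summed to 231 to 315 CPM without DHT and 237 to 243 CPM with DHT, of which Smtn alone held 229 to 313 CPM and Acta2 at most 1.04 CPM. Neuroendocrine and Schwann markers summed to 2.54 to 2.86 CPM without DHT and 2.19 to 2.76 CPM with DHT. None of the tested members of these lists was called.

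Brca1 itself was measured at 20.2, 18.5 and 17.2 CPM without DHT and 17.8, 14.7 and 18.04 CPM with DHT in the HET libraries. The media overlapped, and the log2 change was 0.14 ± 0.13 (SE, edgeR quasi-likelihood test, adjusted p = 0.848). Brca1 RNA did not fall below wild type in the libraries labelled HET. The libraries labelled WT held 13.2, 11.2 and 14.2 CPM without DHT and 13.6, 13.2 and 14.3 CPM with DHT, and those labelled KO 13.1, 10.8 and 10.2 CPM without DHT and 11.8, 9.64 and 11.2 CPM with DHT. All 6 HET libraries lay above the 12 others. An allele that loses some exons can still give RNA, and the sources do not say which part was deleted, so this measurement does not check the label. HET below means the libraries labelled so.

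Withdrawal of DHT changed 109 of the 15427 genes tested at an adjusted p under 0.05 (edgeR quasi-likelihood test, Benjamini-Hochberg over all genes), which is 0.707%. Of these, 53 were higher without DHT (0.344%) and 56 lower (0.363%). Among the largest falls were the dehydrogenases Aldh1a7 and Aldh1a1, the protease inhibitor Spink5, the ion pump Atp12a, and the hormone-dependent genes Zbtb16 and Fkbp5, with log2 changes between -2.52 and -1.42. Among the largest rises were the imprinted gene Peg10, the claudin Cldn8, the matricellular gene Thbs2 and the autotaxin gene Enpp2, with log2 changes between 1.44 and 2.92. All 109 genes had no overlap between the 3 libraries of each medium, a pattern that 12.2% of all genes tested showed (5.91% higher, 6.25% lower). The response was moderate in size: 24 genes were at least 2-fold higher and 35 at least 2-fold lower, with a median log2 change of 0.95 among the rises and -1.20 among the falls.

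The number of calls depended on the libraries. It was 54 without HET minus DHT replicate 1, 58 without HET minus DHT replicate 2, 59 without HET plus DHT replicate 1 and 43 without HET plus DHT replicate 2, and 36 of the 109 genes (11 higher, 25 lower) were called with each of the 6 libraries left out in turn. A fit to the 6 HET libraries alone called 0 genes by edgeR, with 757 at an unadjusted p under 0.05, so the calls rest on the spread shared with the KO and WT organoids. Counts of list members called are those of the edgeR fit to all 18 organoid libraries unless another fit is named. Beside each called gene whose values are given below, the libraries are named whose removal, 1 at a time, lost its call. Lap3, Adgrf4, C1s1, Cxcr4, Nes, Fmo2 and Fmo6 are named below only for their promoter or chromosome. Each of them lost its call with at least 1 of these libraries left out. The direction of all 109 was the same in every alternative that fitted them.

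**Figure D2:**
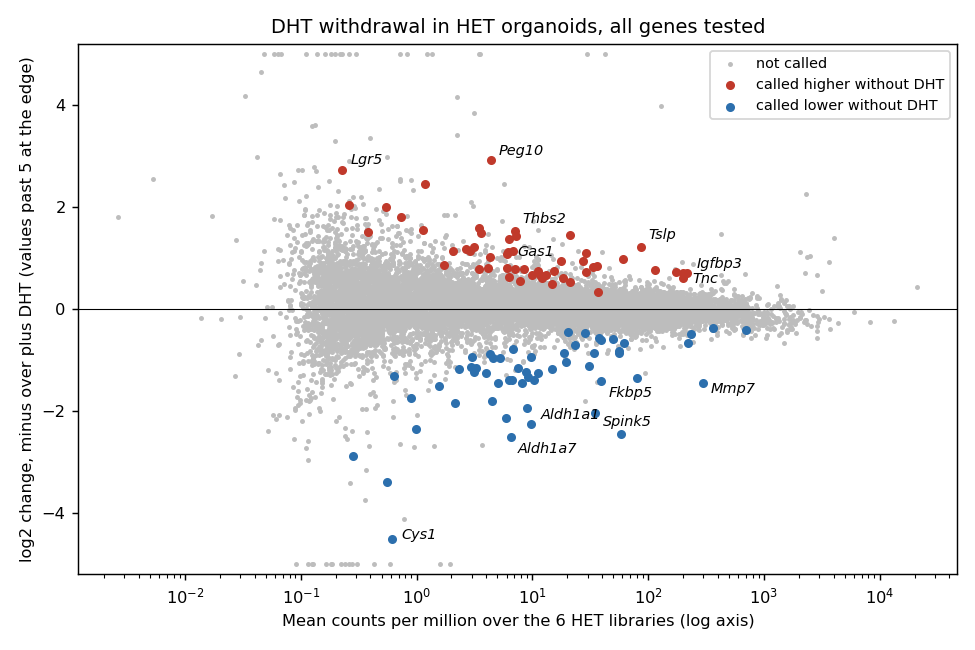
The log2 change (HET minus DHT over HET plus DHT) of each of the 15427 genes tested against its mean CPM over the 6 HET libraries on a log axis. Red points are the 53 genes called higher without DHT, blue points the 56 called lower and grey points the rest, with values past 5 drawn at the edge.

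The receptors for estrogen, glucocorticoid and mineralocorticoid did not pass the test. Esr1, the estrogen receptor alpha, had 17.4, 19.9 and 17.5 CPM without DHT and 14.02, 12.8 and 14.95 CPM with DHT. The groups did not overlap, and the log2 change of 0.39 ± 0.11 missed the threshold in edgeR (adjusted p = 0.149) and passed it in DESeq2 (adjusted p = 0.028). The glucocorticoid receptor Nr3c1 and the mineralocorticoid receptor Nr3c2 had log2 changes of 0.12 and 0.42, and neither was called by edgeR. Esr2 stayed at or under 0.674 CPM in all 6 libraries, and Pgr did not pass the filter on low counts. None of 14 androgen receptor coregulators and chaperones was called; the chaperone Hsp90ab1 had 2872, 2329 and 2132 CPM without DHT and 2335, 2571 and 2502 CPM with DHT. Likewise none of 10 tested enzymes of androgen metabolism was called, Srd5a1 (a steroid 5-alpha reductase, which makes DHT) having 62.3, 66.7 and 65.8 CPM without DHT and 74.2, 72.5 and 72.5 CPM with DHT.

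Among the targets of the receptor, a few genes fell steeply while most members of a broad list were not called. Fkbp5, a cochaperone of steroid receptors and a textbook androgen target at chr17:28399094-28517527 (gene coordinates are GRCm38), fell to 18.4, 20.9 and 25.03 CPM without DHT, against 54.7, 65.7 and 51.9 CPM with DHT. The highest library without DHT was below the lowest with it, at a log2 change of -1.42 ± 0.15, adjusted p = 0.000109. Zbtb16 (chr9:48654297-48836222), a zinc finger repressor that androgens and glucocorticoids induce, had 2.43, 1.998 and 1.56 CPM without DHT and 5.804, 8 and 7 CPM with DHT (log2 change -1.81 ± 0.22, adjusted p = 0.000463). Mertk, a receptor tyrosine kinase that takes part in clearing apoptotic cells, was lower as well, at a log2 change of -1.16 ± 0.17, adjusted p = 0.00314. Each of these genes kept its call with any 1 of the 6 libraries left out.

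In the broad androgen response list, 3 members were called lower, Fkbp5 and Mertk among them, 0 were called higher and 93 of 96 tested were not called. Its median log2 change was 0.01, beside 0.02 over all genes tested, and 48 members lay above 0 and 48 below. Of the 96, 21 were lower and 7 higher without overlap between the media, as were 6.25% and 5.91% of all genes tested. The list of prostate secretory and androgen-dependent genes was tested for 13 of its 22 members. In it 3 members fell, Spink5 and Fkbp5 among them, 0 rose, and the median was -0.26 with 11 of 13 below 0. Tmprss2, a luminal serine protease known as an androgen target, had a log2 change of -0.41 ± 0.12 and did not pass the test (adjusted p = 0.192, edgeR). The list of glucocorticoid receptor targets had 21 members tested, of which Fkbp5 and Zbtb16 fell and 19 were not called. In it 19 of 21 lay below 0 and the median was -0.32, beside -0.24 in KO and -0.04 in WT. Over all 15427 genes tested, 7013 lay below 0. Lists on other themes leaned as far, with 24 of 26 hypoxia and glycolysis genes and 26 of 27 nuclear respiratory chain genes below 0. With the mitochondrial share as a covariate, 9 members of the broad androgen list and 5 of the glucocorticoid list were called lower, and 1 and 0 higher. DESeq2 called 8 and 5 lower and 0 higher in either.

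**Figure D3:**
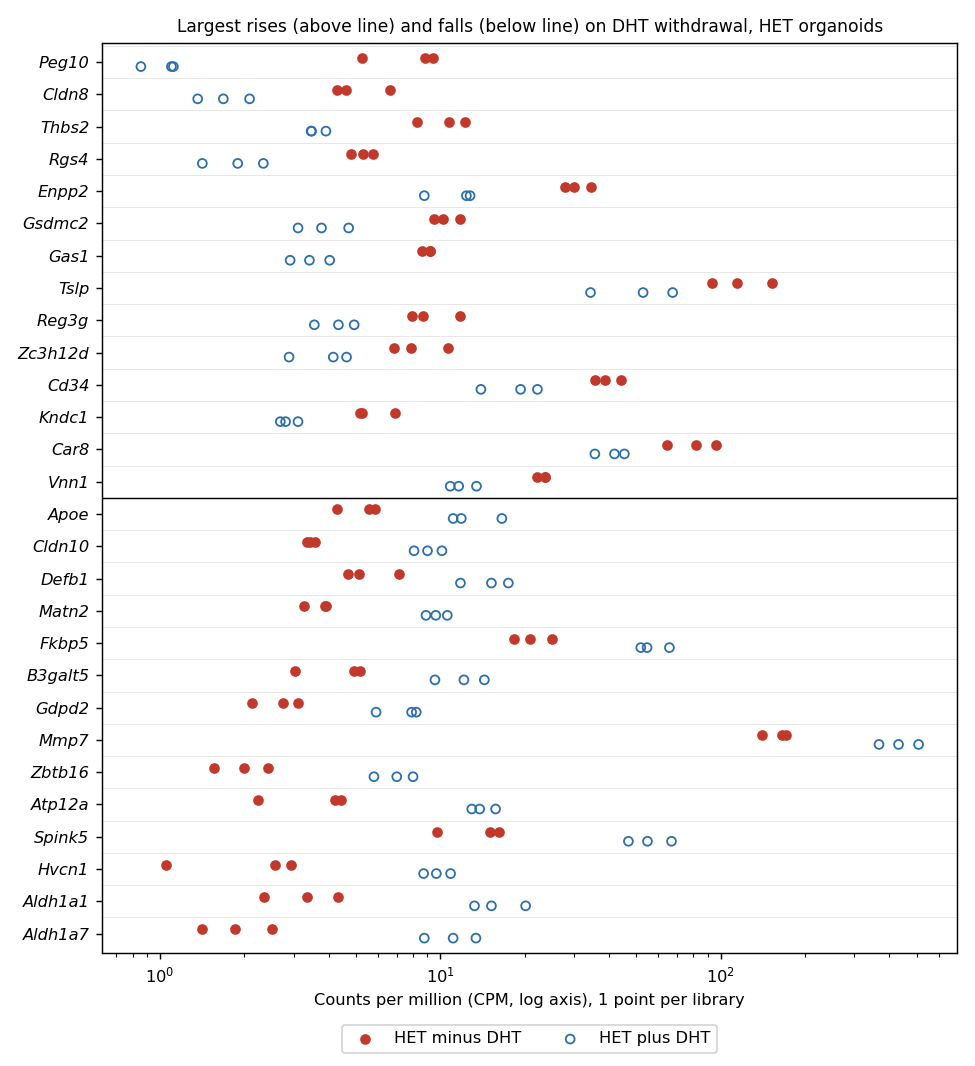
CPM on a log axis in each HET library for 14 of the 15 largest rises (above the line) and 14 of the 15 largest falls (below it) among called genes that averaged 5 CPM or more in either medium. Filled points are the 3 HET minus DHT libraries and open points the 3 HET plus DHT libraries; in each row the media do not overlap, which the choice of genes required.

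A protease inhibitor and a pair of metalloproteinase genes changed. Spink5 (chr18:43963235-44022501), a secreted inhibitor of kallikrein-type serine proteases, had 16.2, 15.01 and 9.77 CPM without DHT and 54.9, 66.8 and 46.9 CPM with DHT. Every library without DHT was below every library with it by at least 2-fold, and the log2 change was -2.05 ± 0.27, adjusted p = 0.00134. Mmp7 (chr9:7692090-7699585), the epithelial metalloproteinase matrilysin, was the most abundant of the 15 largest falls, with 141, 165 and 171 CPM without DHT and 508, 431 and 367 CPM with DHT (log2 change -1.46 ± 0.12, adjusted p = 3.30e-05). The stromelysin gene Mmp3 moved the other way at a lower level, with 4.83, 4.65 and 3.65 CPM without DHT and 2.15, 1.55 and 1.896 CPM with DHT (log2 change 1.22 ± 0.21, adjusted p = 0.0102). Its call was lost without HET minus DHT replicate 2 or HET plus DHT replicate 2 (adjusted p up to 0.0864), and 14.6% of its transcript's 31-base words occur in other genes, where reads could be assigned to either. Spink5 and Mmp7 kept their calls with any library left out. Mmp7 and Mmp3 were the only edgeR calls among 27 matrix proteases and inhibitors, whose median was 0.03. A transcript named 5430419D17Rik, taken up after its values were seen, fell further than Spink5, to a mean of 18.1 CPM without DHT, against 99.2 CPM with DHT (log2 change -2.45 ± 0.21, edgeR adjusted p = 3.30e-05), also with any library left out.

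Retinoid genes changed at both the synthetic and the degrading step. Aldh1a1, a retinaldehyde dehydrogenase that makes retinoic acid, had 2.36, 4.32 and 3.36 CPM without DHT and 15.2, 20.2 and 13.3 CPM with DHT (log2 change -2.26 ± 0.22, adjusted p = 6.54e-05). Aldh1a7, its close rodent relative on the same chromosome, had 1.42, 2.51 and 1.85 CPM without DHT and 11.1, 13.4 and 8.78 CPM with DHT (log2 change -2.52 ± 0.30, adjusted p = 0.000441). In both genes every library with DHT was more than 3-fold above every library without it. Cyp26b1, the cytochrome P450 that degrades retinoic acid, rose to 140.1, 143 and 149 CPM without DHT, against 89.8, 76.8 and 87.2 CPM with DHT (log2 change 0.77 ± 0.094, adjusted p = 0.000582). The 3 genes kept their calls with any library left out. They were 1 rise and 2 falls among 20 members tested, the other 17 were not called, and the list's median was 0.08.

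The pair of dehydrogenase genes is shown by its promoters because both genes fell together and the sequences are related. The 250 bases before each RefSeq start (GRCm38.p6) lie at chr19:20601718-20601967 on the plus strand for Aldh1a1 and at chr19:20727557-20727806 on the minus strand for Aldh1a7. Read 5′ to 3′ and set against each other base for base from the start, they hold the same letter at 129 of 250 positions and at 94 of the last 100. Capitals mark the 1 identical run of at least 15 bases, which is 65 bases long.
Aldh1a1: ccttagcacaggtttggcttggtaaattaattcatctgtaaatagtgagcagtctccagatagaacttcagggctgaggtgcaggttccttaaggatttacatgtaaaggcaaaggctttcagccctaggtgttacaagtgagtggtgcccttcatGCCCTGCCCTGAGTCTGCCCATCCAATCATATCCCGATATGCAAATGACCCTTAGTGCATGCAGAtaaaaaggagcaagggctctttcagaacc
Aldh1a7: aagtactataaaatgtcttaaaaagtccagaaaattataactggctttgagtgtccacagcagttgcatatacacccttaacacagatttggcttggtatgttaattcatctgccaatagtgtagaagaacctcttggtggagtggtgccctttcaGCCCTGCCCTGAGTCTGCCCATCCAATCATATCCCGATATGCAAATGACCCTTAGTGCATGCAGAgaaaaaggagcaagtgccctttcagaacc
The transcripts are related too: 13.9% of the 31-base words of the Aldh1a1 transcript and 13.8% of those of Aldh1a7 occur in the other, so part of their reads could be assigned to either gene. Neither window holds AGAACA, a hexamer of the element that androgen and glucocorticoid receptors bind, on either strand. Over the promoters searched, the hexamer stood in 2 of 31 genes called lower (6.45%; Apoe and Lap3), in 5 of 32 called higher (15.6%; Abca1, Adgrf4, C1s1, Cxcr4 and Nes) and in 980 of all 9372 (10.5%). The exact string of AGAACA followed after 3 bases by its reverse complement stood in 0 of 9372. The search allowed no mismatch, and so long a string is rarely met in 250 bases. This count therefore cannot tell whether the promoters hold a response element of another spelling, and no conclusion is drawn from it. Distal enhancers, where this receptor often binds, were not searched.

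Ion transport genes fell and rose within the same list. Atp12a, the catalytic subunit of the non-gastric proton-potassium pump, had 2.25, 4.23 and 4.43 CPM without DHT and 13.8, 15.8 and 12.96 CPM with DHT (log2 change -1.95 ± 0.23, adjusted p = 0.000394), a fall that held with any library left out. Kcne3, an accessory potassium channel subunit, fell at a log2 change of -1.18 ± 0.25, adjusted p = 0.0411, a call lost without HET minus DHT replicates 1 or 3 or HET plus DHT replicates 1 or 2 (adjusted p up to 0.206). The epithelial sodium channel was split between its subunits. Scnn1a, the alpha subunit, had 16.9, 17.6 and 18.9 CPM without DHT and 26.6, 30.5 and 30.6 CPM with DHT (log2 change -0.72 ± 0.15, adjusted p = 0.0335), while Scnn1b, the beta subunit, had 7.37, 7.92 and 7.84 CPM without DHT and 3.82, 5.33 and 4.16 CPM with DHT (log2 change 0.80 ± 0.16, adjusted p = 0.032). In neither gene did the media overlap, but the Scnn1a call was lost whichever of the 6 libraries was left out (adjusted p up to 0.179) and the Scnn1b call without HET minus DHT replicates 1, 2 or 3 or HET plus DHT replicates 1 or 3 (adjusted p up to 0.176). The list had 30 members tested, 1 called higher, 3 lower and a median of -0.05. Without HET minus DHT replicate 1, 0 were called higher and 1 lower, and with the mitochondrial covariate 2 higher and 5 lower. Outside it, the voltage-gated proton channel gene Hvcn1 had 1.05, 2.93 and 2.58 CPM without DHT and 9.69, 10.9 and 8.73 CPM with DHT (log2 change -2.14 ± 0.36, adjusted p = 0.00839). A large share of its transcript, 54.1% of 31-base words, occurs in other genes, so its reads are uncertain. Hvcn1, Kcnj15 and Slc40a1 kept their calls with any library left out. Kcnj15, an inward rectifier potassium channel, was lower at -1.84 ± 0.23, adjusted p = 0.000583, and Slc40a1, the iron exporter ferroportin, was higher with 46.4, 48.6 and 43.5 CPM without DHT and 26.5, 23.1 and 27.2 CPM with DHT (log2 change 0.85 ± 0.10, adjusted p = 0.000441). Car8, a carbonic anhydrase relative without that activity, rose by 0.98 on the log2 scale, and its call was lost without HET minus DHT replicate 1 or HET plus DHT replicate 2 (adjusted p up to 0.0792).

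A pair of claudins moved in opposite directions. Cldn10 had 3.45, 3.58 and 3.36 CPM without DHT and 9.01, 10.1 and 8.07 CPM with DHT (log2 change -1.39 ± 0.20, adjusted p = 0.00206), and Cldn8 had 6.603, 4.6 and 4.29 CPM without DHT and 1.69, 1.37 and 2.09 CPM with DHT (log2 change 1.58 ± 0.21, adjusted p = 0.00132). Claudins form the paracellular seal and set which ions pass it. Both calls held with any library left out. The 22 other desmosome and tight junction genes tested were not called, and the list's median was -0.07.

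Few markers of epithelial cell types were called. Of 20 luminal genes 1 fell and 19 were not called, with a median of -0.10. None of 22 basal genes was called by edgeR, with a median of 0.10, while DESeq2 called 1 lower and the fit with the mitochondrial covariate 1 higher. The basal keratin Krt5 had 1299, 1435 and 1928 CPM without DHT and 1459, 1508 and 1338 CPM with DHT. In the list of luminal progenitor and proximal luminal genes, Cldn10 fell, Gsdmc2 rose and 16 of 18 were not called, with a median of -0.22; DESeq2 called 1 higher and 4 lower. Gsdmc2, a gasdermin C family member, had 9.47, 11.8 and 10.2 CPM without DHT and 3.11, 3.77 and 4.72 CPM with DHT (log2 change 1.44 ± 0.26, adjusted p = 0.0146). Its call was lost without HET minus DHT replicate 2 or HET plus DHT replicates 1 or 2 (adjusted p up to 0.107), and 63.8% of its 31-base words occur in other genes, so its level is uncertain. None of 24 squamous and cornified envelope genes was called by edgeR, and DESeq2 called 2 higher; Sprr1a had 623, 445 and 531 CPM without DHT and 352, 333 and 402 CPM with DHT (adjusted p = 0.149, edgeR), values without overlap that DESeq2 called. In these bulk libraries, fewer cells of a type and less RNA per cell cannot be told apart.

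**Figure D4:**
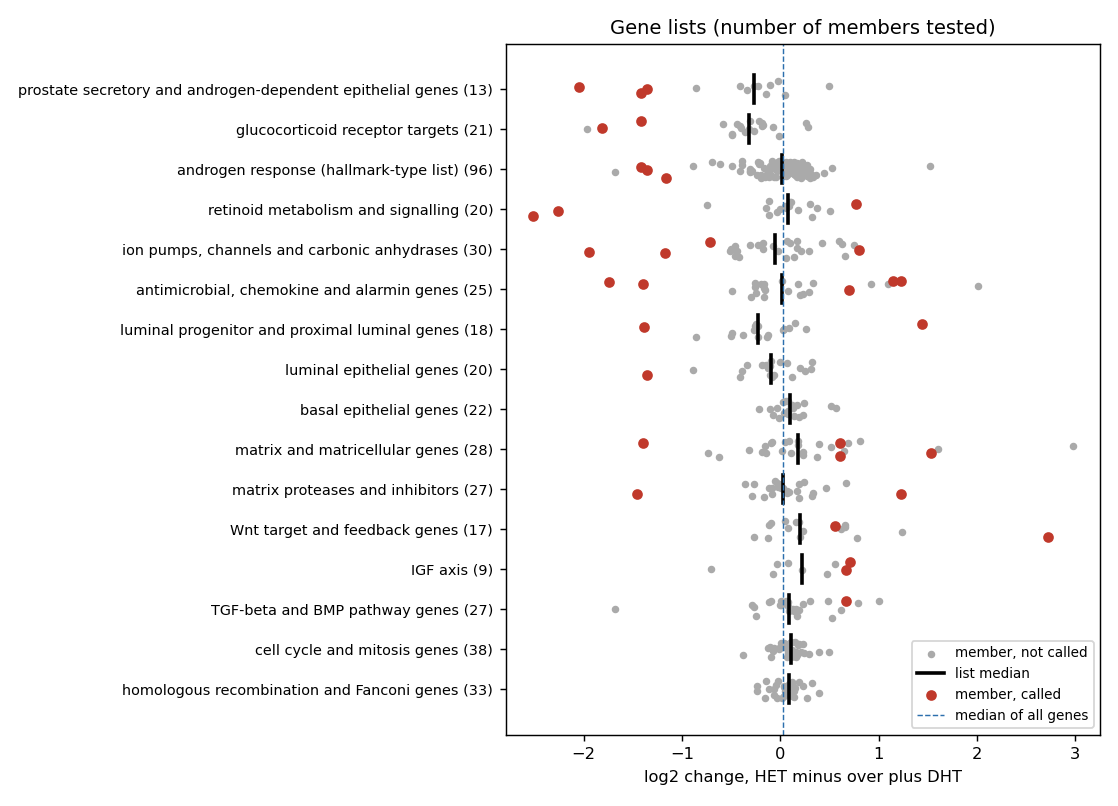
The log2 change (HET minus DHT over HET plus DHT) of each tested member of 16 gene lists, with the number tested in brackets. Red points are members called, grey points members not called, black bars the list medians and the dashed line the median of all genes, 0.02.

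Of the 4 matrix genes called, 3 rose and 1 fell. Thbs2 (chr17:14665500-14694235), a thrombospondin that binds matrix and proteases, had 8.27, 10.8 and 12.3 CPM without DHT and 3.46, 3.48 and 3.91 CPM with DHT. Its lowest value without DHT was more than 2-fold above its highest with DHT, at a log2 change of 1.53 ± 0.15, adjusted p = 7.07e-05. Tnc, the adhesion-modulating protein tenascin C, had 231, 223 and 267 CPM without DHT and 152, 141 and 182 CPM with DHT (log2 change 0.60 ± 0.11, adjusted p = 0.0147). The basement membrane linker Nid1 rose by 0.61 on the log2 scale (adjusted p = 0.032, edgeR). Matn2, a matrilin of the filamentous matrix, fell to 3.88, 3.28 and 3.92 CPM without DHT, against 9.64, 10.6 and 8.896 CPM with DHT (log2 change -1.40 ± 0.13, adjusted p = 6.06e-05). The list had 28 members tested and a median of 0.18. With the mitochondrial covariate 5 were called higher and 2 lower, and without HET minus DHT replicate 1 the calls were 2 higher and 1 lower. The Thbs2 and Matn2 calls held with any library left out. The Tnc call was lost without HET minus DHT replicate 3 or HET plus DHT replicates 1 or 2 and the Nid1 call without HET minus DHT replicates 1 or 3 or HET plus DHT replicates 1 or 2 (adjusted p up to 0.118 and 0.175). Tnc was also the 1 edgeR call among 13 genes of mesenchymal transition, of which DESeq2 called 2 higher.

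Genes of 4 signalling pathways were called, all upward in the edgeR fit. Lgr5, the R-Spondin receptor of epithelial stem cells and a Wnt target, was counted 11, 16 and 26 times without DHT and 3, 1 and 3 times with DHT. That is at most 0.414 CPM, and the log2 change of 2.72 ± 0.45, adjusted p = 0.00757 rests on few reads; the call was lost without HET plus DHT replicate 2 (adjusted p = 0.061). Apcdd1, a secreted Wnt inhibitor, rose by 0.56 (adjusted p = 0.0182, edgeR). They were 2 of 17 Wnt genes tested, with a median of 0.20, and 1 was called higher without HET minus DHT replicate 1. Gas1 (chr13:60174405-60177365), a Hedgehog coreceptor, had 9.22, 8.595 and 9.23 CPM without DHT and 3.42, 2.92 and 4.04 CPM with DHT (log2 change 1.38 ± 0.16, adjusted p = 0.00037), the 1 edgeR call among 9 Hedgehog genes, of which DESeq2 called 2 higher. Tgfb3, a TGF-beta ligand, had 14.98, 16.6 and 16.9 CPM without DHT and 10.95, 9.45 and 10.1 CPM with DHT (log2 change 0.67 ± 0.098, adjusted p = 0.0028), the 1 edgeR call among 27 TGF-beta and BMP genes. DESeq2 and the fit with the mitochondrial covariate each called 2 of those 27 higher and 1 lower. Gas1 and Tgfb3 kept their calls with any library left out, and the Apcdd1 call was lost without HET minus DHT replicates 1 or 3 or HET plus DHT replicates 1 or 3 (adjusted p up to 0.103).

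In the IGF axis, Igfbp3, which binds and retains IGF, had 306, 282 and 222 CPM without DHT and 162, 145 and 188 CPM with DHT (log2 change 0.71 ± 0.14, adjusted p = 0.0316). Irs1, the adaptor that the IGF1 and insulin receptors phosphorylate, had 15.2, 14.9 and 13.02 CPM without DHT and 8.03, 8.32 and 10.7 CPM with DHT (log2 change 0.67 ± 0.14, adjusted p = 0.0411), though 30.7% of its 31-base words occur elsewhere. They were 2 of 9 members tested and the median was 0.22; 0 were called without HET minus DHT replicate 1 and 3 higher with the mitochondrial covariate. The Igfbp3 call was lost without HET minus DHT replicates 1 or 2 or HET plus DHT replicates 1 or 2 and the Irs1 call without HET minus DHT replicates 1, 2 or 3 or HET plus DHT replicates 1 or 2 (adjusted p up to 0.209 and 0.256). None of 12 Notch genes and none of 28 EGF family and MAPK output genes was called by edgeR, and 1 of the 28 was called higher with the mitochondrial covariate. Ccnd1, the G1 cyclin, had 984, 942 and 976 CPM without DHT and 844, 751 and 916 CPM with DHT (adjusted p = 0.515, edgeR).

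Enpp2 and Peg10 were among the steepest rises. Enpp2 (chr15:54838901-54952892), the secreted enzyme autotaxin that makes lysophosphatidic acid, had 34.6, 29.99 and 27.9 CPM without DHT and 12.8, 8.78 and 12.4 CPM with DHT. All values without DHT were more than 2-fold above all values with it, and the log2 change was 1.44 ± 0.14, adjusted p = 7.07e-05. Peg10 (chr6:4747306-4760517), a paternally expressed gene of retrotransposon origin, had 9.396, 8.804 and 5.24 CPM without DHT and 1.1, 0.856 and 1.12 CPM with DHT (log2 change 2.92 ± 0.27, adjusted p = 6.06e-05). Peg10 was the 1 edgeR call among 11 imprinted genes tested, whose median was 0.13, and DESeq2 called 2 higher. Cd34, a surface sialomucin of progenitor cells, had 44.1, 35.7 and 38.6 CPM without DHT and 19.4, 13.97 and 22.2 CPM with DHT (log2 change 1.09 ± 0.16, adjusted p = 0.00229). Vnn1, a pantetheinase, had 23.7, 23.7 and 22.2 CPM without DHT and 10.9, 11.6 and 13.5 CPM with DHT (log2 change 0.95 ± 0.14, adjusted p = 0.00314). All 4 kept their calls with any library left out. Rgs4, a brake on G-protein signalling, rose by 1.49 (adjusted p = 0.032, edgeR), Zc3h12d, an RNA-degrading zinc finger protein, by 1.11 (adjusted p = 0.016) and Kndc1 by 1.01 (adjusted p = 0.0308). The Rgs4 and Kndc1 calls were lost whichever library was left out, and the Zc3h12d call without HET minus DHT replicate 1 or HET plus DHT replicate 2 (adjusted p up to 0.209, 0.156 and 0.112).

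Epithelial defence genes split by direction. Tslp, an alarmin cytokine, had 153, 115 and 93.4 CPM without DHT and 52.9, 34.4 and 67.5 CPM with DHT (log2 change 1.22 ± 0.25, adjusted p = 0.032). Reg3g, an antibacterial lectin, had 7.91, 11.8 and 8.72 CPM without DHT and 3.56, 4.34 and 4.93 CPM with DHT (log2 change 1.15 ± 0.21, adjusted p = 0.018). Cxcl15, a neutrophil chemokine of mouse epithelium, was the most abundant of the 5 called, with 267, 265 and 204 CPM without DHT and 143, 135 and 175 CPM with DHT (log2 change 0.70 ± 0.13, adjusted p = 0.016). Defb1, a beta-defensin, fell to 4.68, 7.11 and 5.13 CPM without DHT, against 15.2, 17.5 and 11.8 CPM with DHT (log2 change -1.39 ± 0.19, adjusted p = 0.00152). Ccl28, a mucosal chemokine, was near the detection limit at 0.399, 0.418 and 0.414 CPM without DHT and 1.33, 1.498 and 1.31 CPM with DHT (log2 change -1.74 ± 0.35, adjusted p = 0.032). That made 3 rises and 2 falls among 25 members tested, with a median of 0.02. Without HET minus DHT replicate 1 the calls were 1 rise and 1 fall, and with the mitochondrial covariate 4 rises and 3 falls. Defb1 kept its call with any library left out. The Tslp and Cxcl15 calls were both lost without HET minus DHT replicates 1 or 2 or HET plus DHT replicates 1 or 2, the Reg3g call without HET minus DHT replicate 2 or HET plus DHT replicates 1 or 2 and the Ccl28 call whichever library was left out (adjusted p up to 0.185, 0.131, 0.124 and 0.153). None of 30 type I interferon genes and none of 17 antigen presentation genes was called. The 8 leukocyte markers summed to at most 2.69 CPM in any of the 6 libraries.

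A pair of immune genes outside that list fell. H60c, a ligand of the NKG2D receptor, had 11.97, 13.98 and 12.2 CPM without DHT and 28.4, 22.9 and 26.8 CPM with DHT (log2 change -1.03 ± 0.12, adjusted p = 0.000378). Fcgr3, an Fc receptor for IgG, had 5.19, 5.599 and 5.04 CPM without DHT and 12.4, 13.6 and 11.4 CPM with DHT (log2 change -1.24 ± 0.17, adjusted p = 0.00206), with 17.7% of its 31-base words shared with other genes. Both calls held with any library left out. The leukocyte marker Ptprc stayed at or under 0.435 CPM in all 6 libraries.

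Few genes of lipid, glycan and amino acid metabolism were called. Apoe, the lipid carrier, had 5.55, 4.298 and 5.83 CPM without DHT and 11.1, 16.6 and 11.9 CPM with DHT (log2 change -1.34 ± 0.22, adjusted p = 0.00757), a call lost without HET minus DHT replicate 2 or HET plus DHT replicate 2 (adjusted p up to 0.0583). Fabp5, a fatty acid binding protein, had 38.4, 43.7 and 36.3 CPM without DHT and 65.7, 88.6 and 61.4 CPM with DHT (log2 change -0.87 ± 0.15, adjusted p = 0.0121) and was the 1 call among 27 genes of fatty acid synthesis and lipid handling; the call was lost without HET minus DHT replicates 1 or 3 or HET plus DHT replicate 2 (adjusted p up to 0.0864), and 33.1% of its 31-base words occur elsewhere. None of 25 genes of cholesterol synthesis and sterol regulation was called. Arg2, the mitochondrial arginase, had 5.15, 4.95 and 3.97 CPM without DHT and 10.4, 12.7 and 8.41 CPM with DHT (log2 change -1.17 ± 0.17, adjusted p = 0.0028), the 1 edgeR call among 18 genes of polyamine and nucleotide synthesis, of which DESeq2 and the fit with the mitochondrial covariate each called 3 lower. Slc16a1, a lactate and pyruvate transporter, rose by 0.34 (adjusted p = 0.0411, edgeR), a call lost whichever library was left out, and was the 1 edgeR call among 18 solute carriers for amino acids, polyamines and zinc, of which DESeq2 called 1 higher and 2 lower. None of 26 mucins and glycosylation enzymes was called by edgeR, while DESeq2 and the fit with the mitochondrial covariate each called 2 higher and 1 lower. B3galt5, a galactosyltransferase, had 3.05, 5.18 and 4.91 CPM without DHT and 12.2, 14.4 and 9.58 CPM with DHT (log2 change -1.45 ± 0.22, adjusted p = 0.00314), and Gdpd2, a glycerophosphodiesterase, fell by 1.45 on the log2 scale (adjusted p = 0.0021, edgeR), with 28.7% of its 31-base words shared. Synm, the intermediate filament protein synemin, had 7.47, 6.85 and 5.8 CPM without DHT and 10.98, 14.1 and 13.4 CPM with DHT (log2 change -0.94 ± 0.12, adjusted p = 0.00132). Arg2, B3galt5, Gdpd2 and Synm kept their calls with any library left out. Of the 31-base words of the Arg2 transcript, 23.6% occur in other genes.

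Lists on proliferation, repair and stress gave few calls. None of 38 cell cycle and mitosis genes passed the edgeR test, with a median of 0.10 beside 0.02 for all genes. Mki67, the proliferation marker, had 732, 561 and 451 CPM without DHT and 549, 493 and 499.6 CPM with DHT, overlapping values at a log2 change of 0.18 ± 0.21 (adjusted p = 0.899, edgeR). Of 33 homologous recombination and Fanconi genes, the repair pathway of Brca1, 0 were called and the median was 0.09. The 23 p53 target genes gave 0 calls; Cdkn1a, the cell cycle inhibitor p21, had 545, 463 and 499.7 CPM without DHT and 529, 612 and 590.4 CPM with DHT (adjusted p = 0.761). DESeq2 called 1 cell cycle gene lower and 0 genes of the other 2 lists. None of 31 genes of glutathione and xenobiotic metabolism and 27 of the unfolded protein response was called by edgeR. Nor was any of 21 genes of heat shock and immediate early response or 26 of hypoxia and glycolysis. DESeq2 called 0, 2, 2 and 1 of these lists lower. Their medians were -0.15, -0.08, -0.09 and -0.21, with 22, 21, 15 and 24 members below 0, where 7013 of all 15427 genes tested lay. Of the 26 hypoxia and glycolysis genes, 10 were lower without overlap between the media and 0 higher. Over all genes tested these shares were 6.25% and 5.91%. Per2, a repressor of the circadian clock, was the 1 edgeR call among 20 clock genes (DESeq2 called 1 higher and 1 lower), with 23.9, 24.8 and 25.8 CPM without DHT and 16.8, 16.8 and 18.01 CPM with DHT (log2 change 0.53 ± 0.098, adjusted p = 0.0162), a call lost without HET minus DHT replicates 2 or 3 or HET plus DHT replicates 1 or 2 (adjusted p up to 0.101).

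Mitochondrially encoded genes had the highest list median, 0.99, with all 13 tested members above 0 and 0 called. Over all 15427 genes tested, 8401 lay above 0. mt-Co2, a subunit of cytochrome c oxidase, ran from 859 to 13510 CPM among the libraries without DHT and from 1257 to 3282 CPM among those with DHT. The media overlapped, the spread within the libraries without DHT being the wider, and HET minus DHT replicate 1 held the highest value. Without that library the log2 change of mt-Co2 was -0.18, against 1.40 with it. The nuclear genes of the respiratory chain gave 0 calls among 27, with a median of -0.16.

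The same withdrawal in organoids of the other genotype labels moved these genes in the same direction. All 53 genes higher without DHT in the libraries labelled HET were above 0 in those labelled KO and in those labelled WT, where 56.0% and 52.8% of all genes were. All 56 genes lower were below 0 in both, where 43.9% and 47.1% of all genes were. Of the rises, 24 were also called in KO (45.3% of the HET rises and 80.0% of the 30 KO rises) and 37 in WT (69.8% of the HET rises and 39.8% of the 93 WT rises). Of the falls, 37 were also called in KO (66.1% of the falls in each) and 44 in WT (78.6% of the HET falls and 41.1% of the 107 WT falls). In all, 86 genes were called in KO (0.557%; 0.194% higher, 0.363% lower) and 200 in WT (1.3%; 0.603% higher, 0.694% lower). The 3 responses share no library, but they share the estimate of the spread.

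Genes called in both other labels numbered 33 falls and 23 rises, and Fkbp5, Aldh1a1 and Peg10 were among them. Fkbp5 had log2 changes of -1.42 in HET, -1.45 in KO and -1.83 in WT. Aldh1a1 lay at -2.26 in HET, -2.07 in KO and -2.21 in WT. Peg10 lay at 2.92 in HET, 2.97 in KO and 4.32 in WT. The differences between labels were within the standard errors for Aldh1a1 and wider for Peg10, whose response in HET differed from that in WT by -1.39 ± 0.42 on the log2 scale without passing the test (unadjusted p = 0.00424, adjusted p = 1, edgeR). Peg10 averaged 5.54 CPM without DHT and 0.238 CPM with DHT in WT, beside 7.81 and 1.025 CPM in HET. The WT change therefore rests on a level near the detection limit with DHT.

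**Figure D5:**
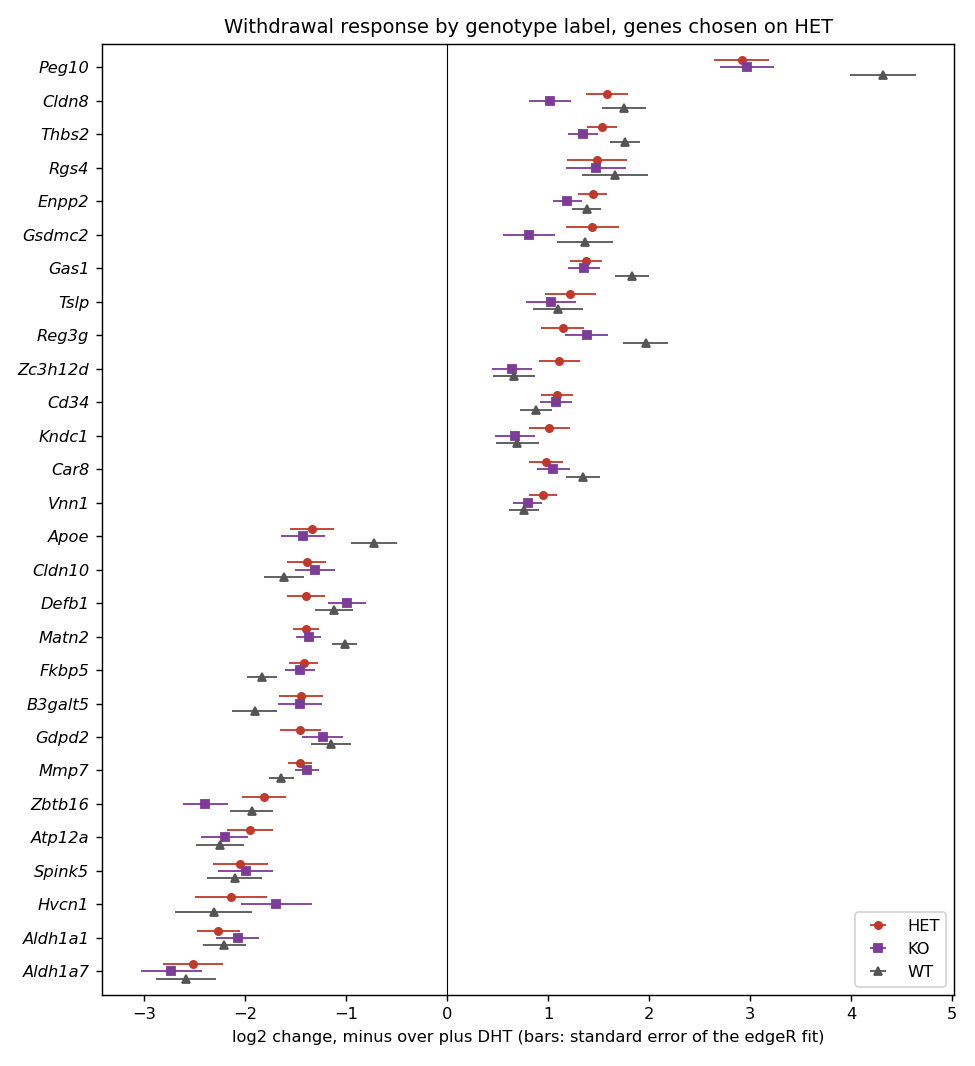
The log2 change (minus DHT over plus DHT) with its standard error from the edgeR fit for 14 of the 15 largest rises and 14 of the 15 largest falls, chosen on the HET libraries, in organoids labelled HET (circles), KO (squares) and WT (triangles). Every gene shown lies on the same side of 0 in the 3 labels.

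No gene passed the test of the difference itself. The response in HET minus that in WT gave 0 called genes of 15427 (0%) in edgeR, with 433 at an unadjusted p under 0.05 and 6 called by DESeq2. Those 6 were Smoc2, Adamts9, Ncam1, Pde9a, Ctsf and Gm10273. For Gm10273 the edgeR log2 changes were -10.09 in HET, 11.13 in WT and 9.78 in KO. Its DESeq2 log2 difference from WT was -48.8. Values of that size are not read here as a response. Smoc2, a secreted matricellular protein, had a log2 change of 0.05 in HET and 1.38 in WT, and none of the 6 was among the 109 genes called in HET. The response in HET minus that in KO gave 0 called genes (0%) in edgeR and 151 at an unadjusted p under 0.05. DESeq2 called 1, again Gm10273, at a fitted log2 difference of -47.8.

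In neither KO nor WT were 15 of the rises and 8 of the falls called. The rises called in HET alone include Mmp3, Irs1, Scnn1b and Abca1, and the falls include the vitamin D receptor gene Vdr; these were named here after their values were seen. Mmp3 rose by 1.22 in HET, beside values of 0.61 in KO and 0.37 in WT. Its difference from WT was 0.85 (unadjusted p = 0.0115) and from KO 0.61 (unadjusted p = 0.0551), and neither passed after adjustment. Abca1, the cholesterol exporter, had a mean of 0.424 CPM without DHT and 0.102 CPM with DHT; its log2 change was 2.04 in HET, 0.27 in KO and 1.11 in WT, and the difference from KO had an unadjusted p of 0.00582 and an adjusted p of 1 (edgeR). The Abca1 call in HET was lost without HET minus DHT replicates 1, 2 or 3 or HET plus DHT replicates 1 or 3 (adjusted p up to 0.179). Vdr had log2 changes of -0.58 in HET, -0.51 in KO and -0.46 in WT, and its call in HET was lost without HET minus DHT replicates 1, 2 or 3 or HET plus DHT replicates 1 or 2 (adjusted p up to 0.318). None of these 23 genes passed the test of a difference from KO or from WT.

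Of the 109 genes, 72 belonged to none of the lists. Genes of signalling through G proteins stood on both sides, a grouping made after their values were seen. Rgs2, which shortens G-protein signals, averaged 6.58 CPM without DHT and 15.6 CPM with DHT (log2 change -1.25 ± 0.18, adjusted p = 0.0028, edgeR). The alpha2A-adrenergic receptor gene Adra2a averaged 0.87 CPM without DHT and 0.219 CPM with DHT (log2 change 1.998 ± 0.33, adjusted p = 0.00742). Rgs2 and Adra2a kept their calls with any library left out. Aldh6a1, a mitochondrial dehydrogenase of valine breakdown, averaged 40.7 CPM without DHT and 72.04 CPM with DHT (log2 change -0.83 ± 0.14, adjusted p = 0.00757) and kept its call with any library left out. Mgp, the matrix Gla protein, averaged 35.9 CPM without DHT and 18.7 CPM with DHT (log2 change 0.95 ± 0.15, adjusted p = 0.00728), a call lost without HET plus DHT replicate 2 (adjusted p = 0.0576). The largest fitted fall was that of Cys1, a ciliary protein gene, at 0, 1 and 6 reads without DHT and 45, 57 and 40 reads with DHT; its call was lost without HET minus DHT replicate 2 (adjusted p = 0.0655).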

How the data were processed

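The authors deposited estimated counts and transcripts-per-million (TPM) per transcript. The submitters' processing notes name Salmon 0.13.1 and the build hg38. The deposited identifiers are mouse Ensembl identifiers, so the 116945 transcripts were mapped without version numbers to GENCODE mouse release 21 (GRCm38). The 922 transcripts without a gene held 0.267% to 0.310% of reads in the 6 HET libraries and were left out. Strandedness, read trimming and the annotation of the index are not given in the sources used here, so overlapping antisense genes cannot be told apart.

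The deposited estimated counts were added up by gene, rounded to whole numbers, scaled by TMM, filtered with filterByExpr and tested in edgeR 4.0.16 (R 4.3.3) with the quasi-likelihood F-test. The fit used 18 organoid libraries, 1 mean per group and 12 residual degrees of freedom. Its biological coefficient of variation was 0.214, and p-values were adjusted by Benjamini-Hochberg over 15427 genes. CPM uses scaled library sizes and carries no length correction, so CPM compares libraries and not genes. Counting error is small beside the spread between libraries except for genes of a few reads. The 6 tissue libraries were not used. The steps were tested on simulated data.

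The comparison and the 47 gene lists were chosen with earlier results of these data known. Named genes are Brca1, the steroid receptors, the 15 largest rises and 15 largest falls among called genes with at least 5 CPM in a group and no overlap, up to 4 called members of each list with the lowest p (or the 2 most abundant where none was called) and 5 further called genes of lowest p. Clone-type symbols were left out, and a few genes the rule names are not reported here. Promoters are the 250 bases before RefSeq starts (GRCm38.p6) within 500 bases of the most abundant transcript's start, on both strands, found for 9372 of 15427 genes. Alternatives were DESeq2 1.42.0, other scalings and filters, length offsets, gene subsets, covariates, blocks and left-out libraries.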

Additional observations from a re-analysis of the deposited data

How the results depend on the processing

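The count of 109 genes (53 higher, 56 lower) moved by more than 1.5 times under several alternatives. It was 60 (30 and 30) with library totals only, 295 (129 and 166) with DESeq2, 293 (134 and 159) with the mitochondrial share as a covariate, and 0 (0 and 0) with the 6 HET libraries alone. Without a low-count filter 34 genes were called higher. Leaving out 1 HET library gave 43 to 81 calls (15 to 34 higher, 28 to 47 lower), leaving out WT plus DHT replicate 1, the smallest library, gave 111 (53 and 58), and leaving out replicate 1 of both HET groups gave 30 (11 and 19). In WT plus DHT replicate 1, Lars2 alone held 28.1% of reads, against at most 3.5% for the top gene of any other organoid library. Without it, the WT response gave 196 calls and the response in HET minus that in WT gave 0. The other scalings, filters and gene subsets stayed within 1.5 times, and all 109 genes kept their sign wherever fitted.

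Replicate numbers did not pair the HET libraries: same-number correlations of deviations from the group means were -0.137, -0.129 and -0.692 over 10236 genes. A replicate block within genotype gave 62 calls (28 higher, 34 lower), 54 of them among the 109, and a replicate block by number across genotypes gave 167 (82 and 85).

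For the response in HET minus that in WT, 0 genes became 6 with DESeq2, 2 with the mitochondrial covariate and 1 with the block by number. For the response in HET minus that in KO, 0 became 1 with DESeq2. The cause was not tested. Over 2154 pairs of a named gene and an alternative, 221 lost a call and 7 gained one. The others kept their side of the threshold, 78 of them with a changed sign and called under neither fit. Genes of a few reads, such as Lgr5, Abca1 and Cys1, are limited by depth.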

Other observations

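By position, 10 of the 53 genes called higher without DHT in HET organoids lay on chromosome 1 (18.9%), among them Cd34, Rgs4, Slc40a1, Irs1 and Per2, and 2 of the 56 called lower (3.57%). Chromosome 1 holds 5.89% of the genes tested. The 10 include Fmo2 and Fmo6, which lie near each other. Among the rises, chromosome 6 held 7 (13.2%, beside 4.875% of the genes tested) and chromosome 10 held 5 (9.43%, beside 4.797%). These shares were noticed after the values were seen and no test was made of them.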
